A study of Mus musculus with 34 samples.

Results

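Genes of ATP synthase, the mitochondrial carriers and porins, and the citrate cycle were followed in diaphragm and hindlimb muscle of mdx and BL10 mice. The 9 members were chosen by gene symbol, from probes with a single annotated symbol present in both value tables: Atp5c1, Atp5g1, Atp5g3, Slc25a3, Vdac1, Cs, Idh3a, Mdh1 and Pdhb. They are 9 of 637 genes named in both tables. Each table held 14 probes for them, 3 for Atp5c1, 3 for Idh3a, 2 for Pdhb and 1 for each of the others. All 9 passed the filter on missing values in both tables.

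The 34 arrays, each with 2 colours, comprised 18 without treatment and 16 with L-arginine, the substrate of nitric oxide synthase. The mdx strain carries a mutation of the dystrophin gene that removes the protein from muscle, and BL10 is the matching strain with dystrophin. The labels give no dose, route or duration of L-arginine, no sex and no number of animals per array. The 8 groups were BL10 or mdx, diaphragm or hindlimb, untreated or treated, each with 1 array at 3, 5, 9 and 12 weeks of age. The untreated mdx groups of both tissues had a further 12-week array, so these groups held 5 arrays and the other 6 held 4. Channel 1 was labelled as 12-week RNA of the strain, and channel 2 as RNA of the strain at the named age. At 12 weeks both channels therefore carried the same strain and age. Whether the 12-week RNA on treated arrays was itself from treated animals is not labelled. On 1 array, treated BL10 hindlimb at 9 weeks, both channels were labelled mdx; its title decided its group.

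Each value is a ratio of the channels, given below as log2, and not an expression level. The numerator was taken to be the RNA of the named age and the denominator the 12-week RNA; the order of the labels makes this likely, but no source settles it. A ratio of the opposite direction would turn every sign below. Because all untreated values come from one table and platform and all treated values from another, the effect of treatment and that of the table cannot be told apart. No dye swap is stated, so a constant deviation from 0 cannot be told apart from a dye effect of the probe. The labels do not say that arrays are separate animals, and p-values measure only the spread between arrays, which may be technical. In these bulk samples, fewer muscle cells and less RNA per cell cannot be told apart.

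ATP synthase turns in the inner mitochondrial membrane, where protons flowing back through its ring of c subunits drive the central stalk and the joining of ADP with phosphate. The phosphate enters the matrix through the carrier Slc25a3, and metabolites cross the outer membrane through the porin Vdac1. Pyruvate dehydrogenase and the citrate cycle supply the NADH that feeds the respiratory chain, and muscle, the diaphragm above all, is rich in all of these proteins. Atp5g1 and Atp5g3 encode the same mature subunit c behind different import sequences. Atp5c1 encodes the gamma subunit of the stalk. Cs is citrate synthase, Idh3a the catalytic subunit of the NAD-dependent isocitrate dehydrogenase, Mdh1 the cytosolic malate dehydrogenase of the malate-aspartate shuttle, and Pdhb the beta subunit of the pyruvate dehydrogenase E1 enzyme. RefSeq places Atp5c1 on chr2:10056030-10080510, Atp5g3 on chr2:73908447-73912464, Slc25a3 on chr10:91116574-91124046 and Idh3a on chr9:54586511-54604662 of mouse GRCm38.p6. There, Atp5c1, Atp5g1 and Atp5g3 are now named Atp5f1c, Atp5mc1 and Atp5mc3.

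The promoters of nuclear genes for mitochondrial proteins often carry sites of the factor NRF1. In the RefSeq promoter windows of GRCm38.p6, which held 8 of the 9 members (Idh3a was not analysed here), the NRF1 core GCGCANGCGC was searched on both strands. It was found in 3 of 8 members and in 5.19% of 27025 genes with a window. The matches are shown because no other motif searched was found in more than 1 member, with the match in capitals within their flanks and 5′ to 3′ on the gene's strand.
Atp5c1: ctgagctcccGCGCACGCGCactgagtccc
Atp5g3: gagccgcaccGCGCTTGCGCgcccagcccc
Slc25a3: ctttggatctGCGCCTGCGCagtaggaatc
The stretches lie on the minus strand at chr2:10080430-10080459, chr2:73911295-73911324 and chr10:91124162-91124191. The GABPA motif CCGGAAGT was in 0 of 8 members and 4.31% of genes, the estrogen-related receptor motif TNAAGGTCA in Atp5g3 and 1.43%, and the YY1 motif AAGATGGC in Slc25a3 and 3.19%. No motif match overlapped another motif in these windows. A match is a description of letters and not a bound site.

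The members differed little between strains, tissues, ages or tables beyond the spread of the arrays. Of 22 comparisons, each tested over all genes with limma and Benjamini-Hochberg adjustment at 0.05, 1 member passed in 1 comparison. Idh3a had a higher ratio in treated than in untreated BL10 hindlimb, by 0.77 ± 0.22 (SE). That call was lost in 29 of 51 alternatives, among them centring, scaling or quantile normalisation of the arrays. In the treated table, both genes of subunit c, Atp5g1 and Atp5g3, stood above 0 on all 16 arrays. In the untreated table the members lay on both sides of 0, and 3 of the 5 largest deviations were on the second 12-week arrays of mdx mice.

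**Figure D1:**
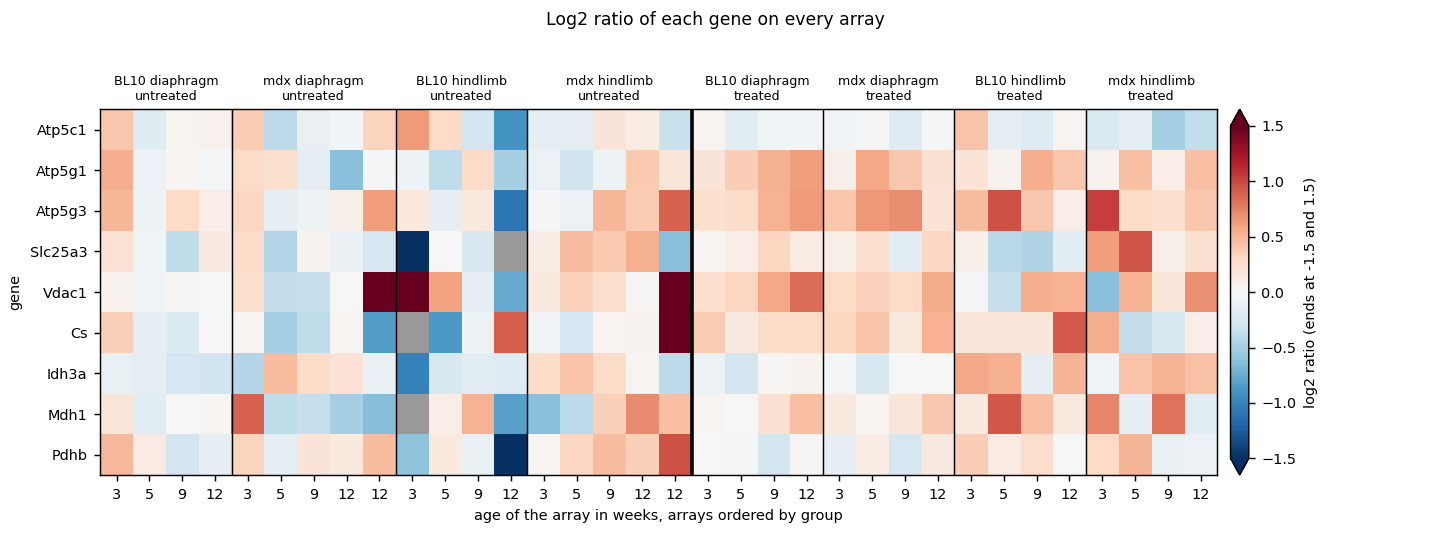
Log2 ratio (colour, blue below 0 and red above, ending at -1.5 and 1.5) of each of the 9 genes (rows) on each of the 34 arrays (columns, labelled with age in weeks and ordered by group); grey marks no value. The rows of Atp5g1 and Atp5g3 are red on all 16 treated arrays, and the darkest cells lie on the untreated side, to the left of the thick line.

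Some untreated arrays stood apart as a whole. Median probe ratios were 0.73 at 3 weeks and 0.78 at 12 weeks in untreated BL10 hindlimb and 0.85 at 3 weeks in untreated BL10 diaphragm, while the other untreated arrays lay from 0.99 to 1.08. They also held 225, 128 and 168 values of 0 or below among 1200 probes, against 0 to 53 on the other untreated arrays. Of the members' own probe values, 7 of 252 untreated and 1 of 224 treated were 0 or below and became missing. Slc25a3, Cs and Mdh1 thereby lost 1 array each in untreated BL10 hindlimb. Treated arrays had medians from 0.94 to 1.22.

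Atp5g1 and Atp5g3 were the members above 0 throughout the treated table. Atp5g1 read 0.19, 0.37, 0.54 and 0.62 at 3, 5, 9 and 12 weeks in treated BL10 diaphragm and 0.08, 0.58, 0.40 and 0.23 in mdx diaphragm. In treated BL10 hindlimb it read 0.20, 0.06, 0.55 and 0.40, and in mdx hindlimb 0.06, 0.45, 0.10 and 0.45. Its mean was 0.33 ± 0.20 (SD, n = 16), with no treated array below 0. Atp5g3, whose product is the same mature peptide, read 0.24, 0.28, 0.53 and 0.64 in treated BL10 diaphragm and 0.41, 0.65, 0.70 and 0.20 in mdx diaphragm. In hindlimb it read 0.46, 0.96, 0.40 and 0.10 in BL10 and 1.04, 0.29, 0.24 and 0.40 in mdx mice. Its mean was 0.47 ± 0.27 (SD, n = 16), again with every array above 0, the 12-week arrays with equal channel labels included. Each gene also exceeded the array's median over all probes with a positive ratio on 15 of the 16 arrays.

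Of 574 genes with a value on all treated arrays, 13, or 2.26%, were above 0 on every one, so that 2 of these 13 were the subunit c genes. The others of the 13 were Cox4i1, Esyt2, Mkrn1, Mylpf, Pggt1b, Postn, Psme3, Rn28s1, Rnf14, Sypl2 and Tceal7. Below 0 on every treated array were 2 genes, or 0.348%, and no member. In the untreated table no member and 0% of 419 genes were above 0 on all arrays, and 0 were below 0 on all. Atp5g1 was above 0 on 7 of 18 untreated arrays, with a mean of -0.02 ± 0.31 (SD), and Atp5g3 on 11 of 18, with 0.13 ± 0.42. The lowest values of Atp5g1 were -0.62 on a 12-week mdx diaphragm array and -0.49 on the 12-week BL10 hindlimb array, where Atp5g3 read -1.09. Untreated and treated ratios of both genes overlapped.

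Averaged over the treated table, the gamma subunit gene Atp5c1 lay below 0, on the other side from the c subunit genes. It was above 0 on 3 of 16 treated arrays, with a mean of -0.10 ± 0.20 (SD), and its lowest group mean was -0.31 ± 0.16 (SD, n = 4) in treated mdx hindlimb. There it read -0.22, -0.14, -0.50 and -0.36 at 3, 5, 9 and 12 weeks, below 0 on every array. Treated BL10 hindlimb read 0.42, -0.14, -0.20 and 0.04, which overlaps, with a mean of 0.03 ± 0.28 (SD, n = 4). All 3 probes had means below 0 over the treated table, from -0.15 to -0.07, but they differed within groups. In treated mdx diaphragm probe 1 averaged 0.15, from 0.03 to 0.30, and probe 3 -0.26, from -0.34 to -0.18. Untreated BL10 hindlimb had the widest range, 0.64, 0.30, -0.29 and -0.90 at the same ages, and the mean there was -0.06 ± 0.68 (SD, n = 4). The -0.90 includes a value of -2.56 on 1 of its 3 probes, while the other probes read 0.30 and -0.43. In the order of its 8 group means, the gap between the lowest, treated mdx hindlimb, and the next, treated mdx diaphragm at -0.08 ± 0.08 (SD, n = 4), exceeded both SDs, and no other neighbouring means did.

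**Figure D2:**
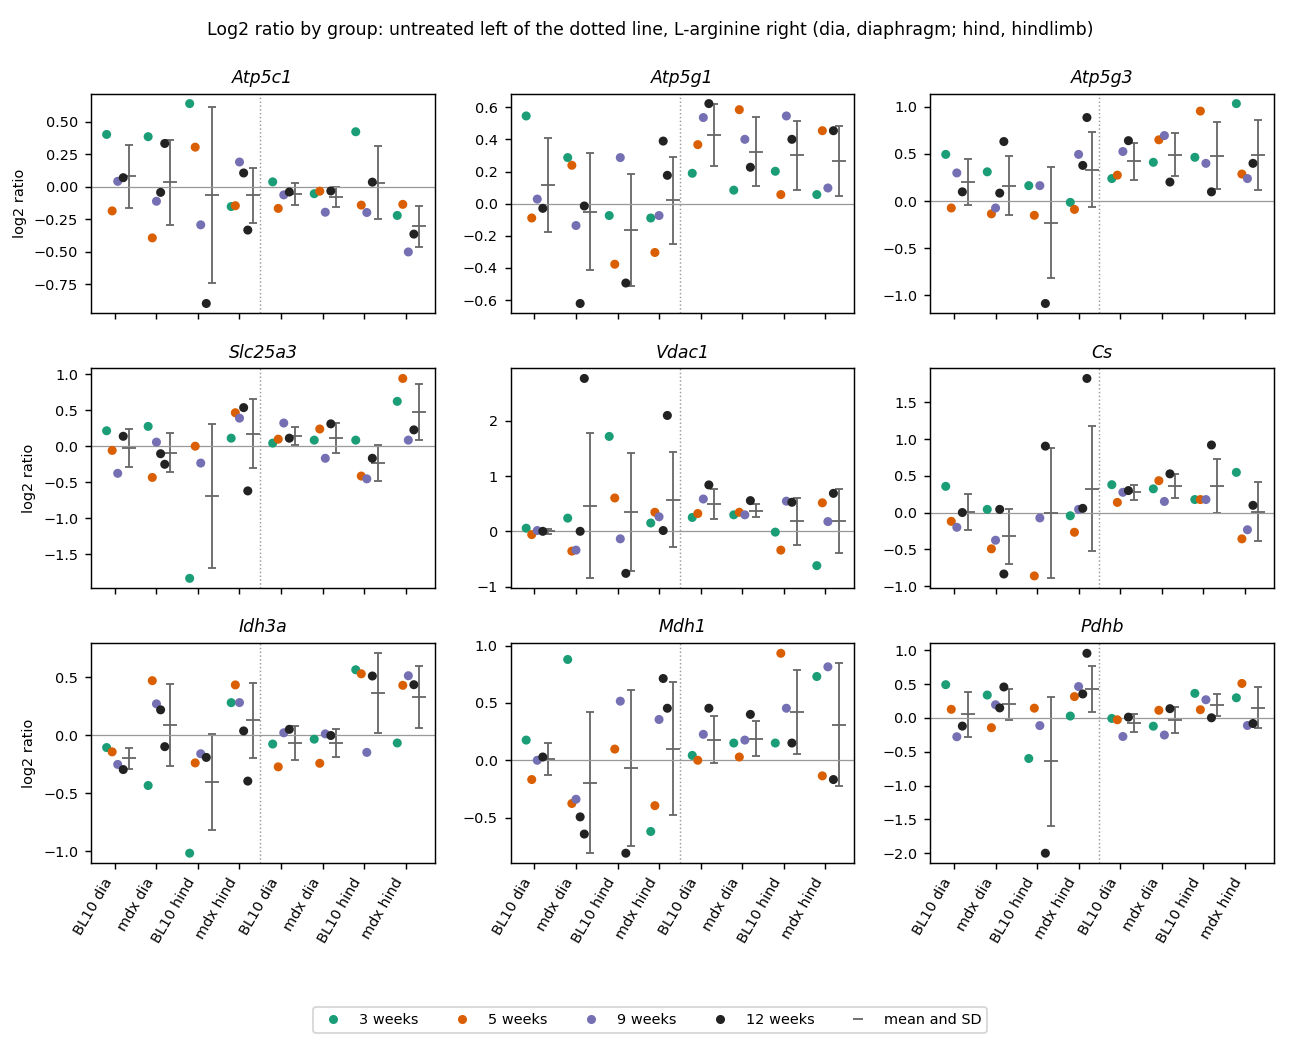
Log2 ratio (vertical axis, its own scale in each panel) of each of the 9 genes in the 8 groups (horizontal axis); points are arrays coloured by age, and the grey bar shows the group mean with its SD. Treated points of Atp5g1 and Atp5g3 all lie above 0, and the untreated BL10 hindlimb group is the widest for Atp5c1, Slc25a3 and Pdhb.

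The phosphate carrier Slc25a3 separated the strains in treated hindlimb more than any other member. It read 0.62, 0.94, 0.08 and 0.23 at 3, 5, 9 and 12 weeks in treated mdx hindlimb and 0.08, -0.42, -0.45 and -0.17 in treated BL10 hindlimb. The groups meet at 0.08, the lowest mdx and the highest BL10 value. Treated diaphragm was narrower, with means of 0.14 ± 0.12 in BL10 and 0.12 ± 0.21 in mdx mice (SD, n = 4 each). In untreated hindlimb Slc25a3 read -1.84, 0.00 and -0.23 at 3, 5 and 9 weeks in BL10 mice, with no value at 12 weeks. Untreated mdx hindlimb read 0.11, 0.46 and 0.39 at these ages, and 0.54 and -0.62 on its 12-week arrays. There the groups overlapped through that last array.

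Vdac1, the porin of the outer membrane, had the widest spread of the members in the untreated table, with an SD of 0.91 over 18 arrays, above that of 87.0% of the genes. In untreated BL10 diaphragm it stayed within -0.06 to 0.06. In untreated BL10 hindlimb it read 1.72, 0.60, -0.14 and -0.76 at 3, 5, 9 and 12 weeks. The mdx arrays labelled Sample 2 read 2.77 in diaphragm and 2.10 in hindlimb. The treated groups lay closer together, from 0.18 ± 0.43 in BL10 hindlimb to 0.50 ± 0.27 in BL10 diaphragm (SD, n = 4 each), and 13 of 16 treated arrays were above 0. In treated diaphragm of both strains the highest Vdac1 ratio was the 12-week one, 0.84 in BL10 and 0.56 in mdx mice.

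Cs, the enzyme often assayed as a measure of mitochondrial content, was above 0 on 14 of 16 treated and 7 of 17 untreated arrays. Treated diaphragm read 0.38, 0.14, 0.28 and 0.30 at 3, 5, 9 and 12 weeks in BL10 and 0.32, 0.43, 0.15 and 0.53 in mdx mice. Untreated mdx diaphragm read 0.04, -0.49 and -0.38 at 3, 5 and 9 weeks, and 0.04 and -0.84 on its 12-week arrays. Untreated hindlimb held its lowest and highest values, -0.86 at 5 weeks in BL10 mice and 1.82 on the mdx array labelled Sample 2. The treated mdx hindlimb mean was 0.01 ± 0.40 (SD, n = 4).

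Mdh1, which carries reducing equivalents toward the mitochondrion, was above 0 on 13 of 16 treated arrays, with a mean of 0.28 ± 0.33 (SD), and on 8 of 17 untreated ones, with -0.04 ± 0.50. In treated hindlimb it read 0.15, 0.93, 0.45 and 0.15 at 3, 5, 9 and 12 weeks in BL10 and 0.73, -0.14, 0.82 and -0.17 in mdx mice. The strains overlapped. In untreated mdx diaphragm it read 0.88 at 3 weeks and -0.38, -0.34, -0.49 and -0.64 on the later arrays, so that only the youngest array was above 0.

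Pdhb, of the enzyme that admits pyruvate to the cycle, was lowest in untreated BL10 hindlimb, with -0.60, 0.14, -0.11 and -2.0 at 3, 5, 9 and 12 weeks and a mean of -0.64 ± 0.96 (SD, n = 4). Untreated mdx hindlimb read 0.03, 0.32 and 0.46 at 3, 5 and 9 weeks, and 0.35 and 0.96 on its 12-week arrays, all above 0. The groups overlap only through the BL10 value at 5 weeks. The values -0.60 and -2.0 rest on 1 of the 2 probes, since the other had no positive ratio there. The treated groups lay between -0.07 ± 0.13 and 0.19 ± 0.16 (SD, n = 4 each).

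Idh3a had the lowest mean of its 8 groups in untreated BL10 hindlimb, -0.40 ± 0.41 (SD, n = 4), and the highest in treated BL10 hindlimb, 0.36 ± 0.34. Untreated BL10 hindlimb read -1.02, -0.24, -0.16 and -0.19 at 3, 5, 9 and 12 weeks. Treated BL10 hindlimb read 0.56, 0.53, -0.15 and 0.51, and its -0.15 came from the array whose channel labels name mdx. Every treated array thus lay above every untreated one, the closest being -0.15 and -0.16. Of the 6 members with a value on all 8 of these arrays, 1 was so separated, against 6.01% of 466 genes. Treated mdx hindlimb read -0.07, 0.43, 0.51 and 0.43, and untreated mdx hindlimb 0.28, 0.43 and 0.28 at 3, 5 and 9 weeks, and 0.04 and -0.40 at 12. Untreated BL10 diaphragm was below 0 on every array, from -0.30 to -0.11, while treated diaphragm of both strains had means of -0.07. In the order of the 8 means, no neighbours of Idh3a differed by more than both of their SDs.

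Treated minus untreated arrays came next, with the reservation on the tables above. In BL10 hindlimb the median over the members was 0.47, against 0.24 over all genes, and 8 of 9 members were above 0, as were 71.2% of all genes. The difference of Idh3a, 0.77 ± 0.22 (SE, n = 4 against 4), had an adjusted p of 0.0451 by limma, a 1.70-fold higher ratio. It was the only member called, where 4.87% of 636 genes were, 25 higher and 6 lower. Unadjusted, 4 members had a p under 0.05, as did 128 of the 636 genes. Pdhb, not called, had the largest difference, 0.83 ± 0.30. With each array centred on its median, Idh3a differed by 0.60 (adjusted p 0.145 by limma), and without both untreated BL10 hindlimb arrays that stood apart, by 0.62 (adjusted p 0.450). Leaving out the 3-week array alone gave 0.58 (adjusted p 0.192 by limma), and leaving out the array named mdx gave 0.98 (adjusted p 0.0131 by limma).

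The 3 probes of Idh3a, which match different sequence entries, each had the higher mean in treated BL10 hindlimb, but none separated the groups. The first had 0.00, -0.10, -0.04 and 0.07 untreated and 0.36, 1.01, -0.15 and 0.58 treated at 3, 5, 9 and 12 weeks. The second had -2.56, -0.74, -0.27 and -0.45 against 0.18, -0.14, 0.26 and -0.34. The third had -0.49, 0.12 and -0.17 at 3, 5 and 9 weeks, with no value at 12, against 1.16, 0.71, -0.56 and 1.29. The low 3-week mean thus came mostly from the second probe and the high treated values from the first and the third. As single probes, the smallest of their adjusted p values was 0.0911 by limma.

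**Figure D3:**
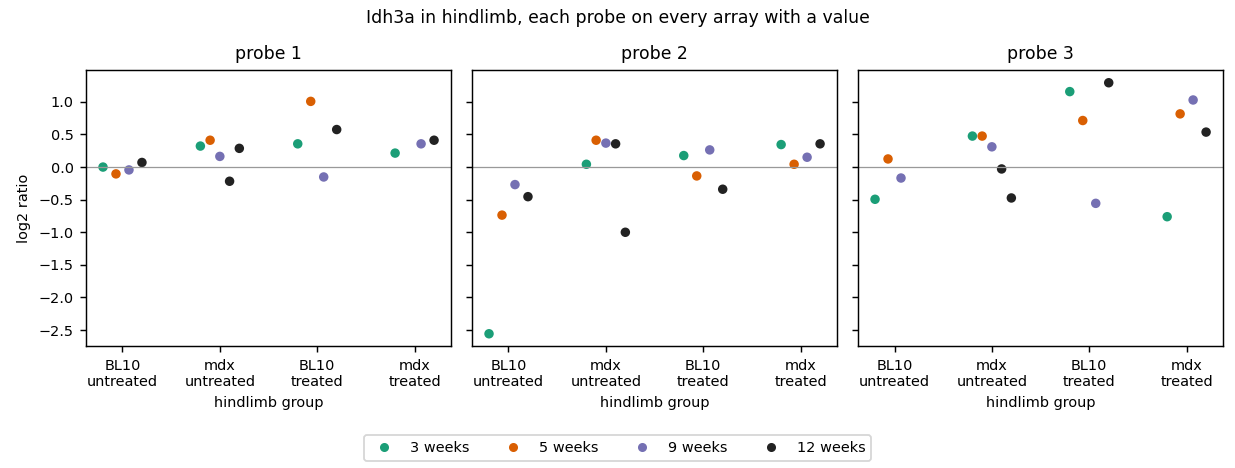
Log2 ratio (vertical axis) of each of the 3 Idh3a probes (panels) in the 4 hindlimb groups (horizontal axis); points are arrays coloured by age. In BL10 mice the treated mean is the higher one on each probe, the ranges overlap on each probe, and the lowest point is probe 2 at 3 weeks, -2.56.

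Genes of the muscle fibre also had low ratios in untreated BL10 hindlimb. The 6 measured of 9 listed fibre markers averaged -0.65 in untreated BL10 hindlimb, with arrays from -1.73 to -0.06, and 0.06 in treated BL10 hindlimb, from -0.01 to 0.14. Of these, Mylpf (1.89 ± 0.55 SE, adjusted p 0.0451) and Tnni2 (1.17 ± 0.30, adjusted p 0.0207), a myosin light chain and a troponin of fast fibres, were called higher in treated BL10 hindlimb by limma, and 4 of the 6 were above 0 and 2 below. Of the 2 slow fibre genes of 7 listed, Tpm3 was called higher (1.16), and the pair averaged -0.42 untreated and 0.23 treated. The ratios of the matrix genes Col1a2 and Fmod were called higher too, 2 of 5 measured, of which 4 were above 0 and 1 below. Their part in the members' result was not tested. As ratios, the marker lists cannot show whether a marker is present or absent in a tissue.

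Of the other genes of energy metabolism on the arrays, few were called in that comparison. Among 9 genes of the respiratory chain, Cox4i1, a subunit of cytochrome c oxidase, was higher by 2.03 ± 0.41 (SE, adjusted p 0.00542 by limma). The list's median was 0.00, with 5 of 9 above 0. Among 9 glycolytic genes, Ldhb, the lactate dehydrogenase subunit of oxidative muscle, was higher by 0.94 ± 0.25 (adjusted p 0.0300 by limma), and 7 of 9 were above 0 with a median of 0.08. The carriers and porins measured besides the members, Slc25a36 and Vdac3, had 0.22 and 0.36, and Got2 of the malate-aspartate shuttle had 0.01, none of them called. No other ATP synthase gene was named in the tables.

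In the other groups no member was called between the tables. In BL10 diaphragm 0% of 636 genes were called. Above 0 were 7 of 9 members, with a median of 0.17, and 55.8% of all genes, with 0.05. The smallest p values were those of Atp5g1 (0.31 ± 0.22 SE) and Vdac1 (0.50 ± 0.52), with adjusted p of 0.794 and 0.881 by limma. No member there had an unadjusted p under 0.05, where 50 genes did. In mdx diaphragm 0.629% were called. Cs differed there by 0.74 ± 0.30 (adjusted p 0.292 by limma) and Atp5g1 by 0.37 ± 0.21. Unadjusted, 1 member and 78 genes had a p under 0.05. Above 0 were 5 of 9 members and 43.7% of all genes, with medians of 0.20 and -0.06. In mdx hindlimb 2.99% were called, and Atp5c1 differed by -0.25 ± 0.21 and Atp5g1 by 0.24 ± 0.21 (adjusted p 0.555 and 0.579 by limma). The members' median there was 0.15, that of all genes 0.22, and 0 members had an unadjusted p under 0.05, where 118 genes did.

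An offset between the tables that all groups share cancels when table differences are compared with each other. Between tissues, 1.1% of genes and no member were called, and Idh3a had the smallest p, with a table difference larger in hindlimb by 0.49 ± 0.22 (SE, adjusted p 0.211 by limma). Between strains, 0% were called. The table difference was larger in mdx mice for 0 of 9 members and for 42.0% of all genes. The members' median was -0.17, against -0.08 over all genes, with Pdhb at -0.62 ± 0.29 and Idh3a at -0.43 ± 0.22 (adjusted p 0.507 by limma for both). Without the untreated BL10 hindlimb array at 3 weeks the median was -0.25, and without that at 12 weeks it was -0.06, with Pdhb at -0.36. At an unadjusted p under 0.05 stood 1 member in each of these comparisons, with 117 genes between tissues and 59 between strains.

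Strain differences below are between ratios, each to 12-week RNA of its own strain, and not between the strains' levels. Between strains in untreated hindlimb, all 9 fitted differences, mdx minus BL10, were above 0, but none was called. They ran from 0.02 for Atp5c1 to 1.10 ± 0.36 (SE) for Pdhb. Their median was 0.20 against 0.16 over all genes, of which 65.8% were above 0. The plain group means of Atp5c1 were -0.07 in mdx and -0.06 in BL10 mice, so only its fitted difference was above 0. Adjusted p was 0.368 for Pdhb and 0.387 for Idh3a, which differed by 0.55 ± 0.23 (limma), and 0.157% of 637 genes were called. Unadjusted, 3 members, these and Slc25a3, had a p under 0.05, as did 76 genes. Without the BL10 12-week array the difference of Pdhb was 0.55, and without both BL10 arrays that stood apart 0.29. In untreated diaphragm, where 0% were called, 3 members were above 0 and 6 below, and 68.0% of all genes were above 0. The members' median was -0.04 there, against 0.15 over all genes. The smallest p values there were those of Idh3a, 0.31 ± 0.23 (SE), and Cs, -0.41 ± 0.38, with adjusted p of 0.710 and 0.761 by limma. In untreated diaphragm no member had an unadjusted p under 0.05, where 62 genes did.

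Over both untreated tissues Pdhb differed by 0.64 ± 0.26 and Idh3a by 0.43 ± 0.16 (SE, adjusted p 0.295 and 0.269 by limma), with 0% of genes called, 2 members and 90 genes at an unadjusted p under 0.05, and 7 of 9 members and 72.1% of all genes above 0. Without the BL10 hindlimb array at 12 weeks Pdhb differed by 0.34. The strain difference was larger in hindlimb than in diaphragm by 0.97 ± 0.53 for Slc25a3 and 0.92 ± 0.51 for Pdhb, with an adjusted p of 0.777 for both by limma and 0% called. No member reached an unadjusted p of 0.05 in that interaction, where 31 of 637 genes did. Slc25a3 gave 0.34 without the BL10 hindlimb array at 3 weeks, and Pdhb 0.43 without that at 12 weeks.

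**Figure D4:**
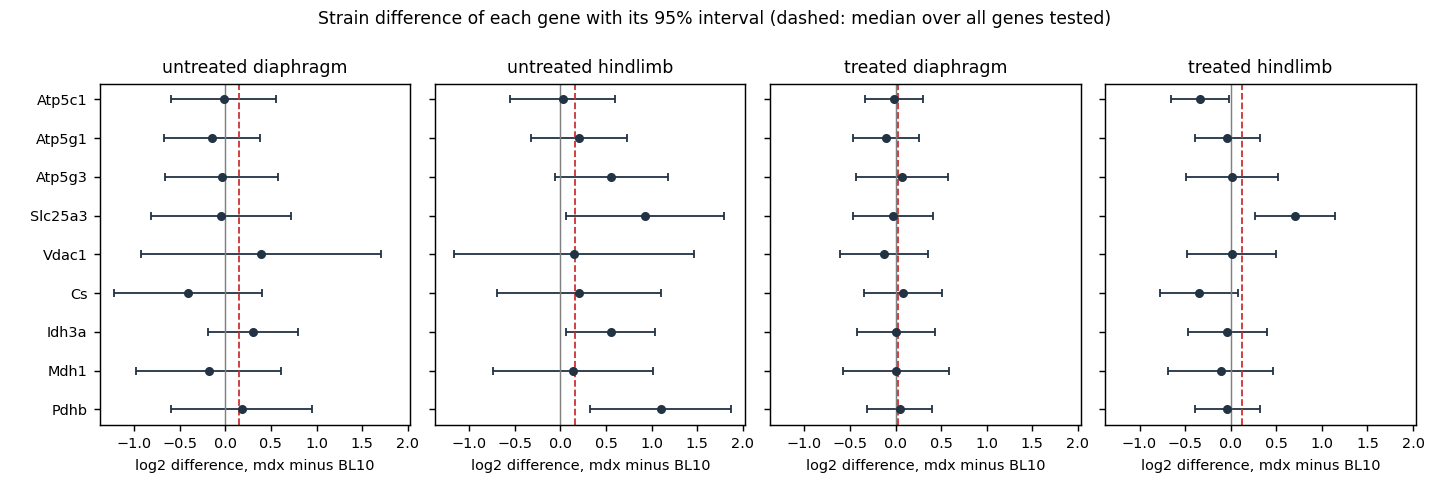
Fitted log2 difference of the ratio, mdx minus BL10 (horizontal axis), for each of the 9 genes (rows) in the 4 tissue and treatment panels; bars are 95% intervals of the fit and the dashed line is the median over all genes tested. All 9 points lie right of 0 in untreated hindlimb, Slc25a3 lies farthest right in treated hindlimb, and treated diaphragm holds all points between -0.12 and 0.09.

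In treated hindlimb Slc25a3 had a higher ratio in mdx than in BL10 mice by 0.71 ± 0.20 (SE, 95% interval 0.27 to 1.14), and Atp5c1 a lower one, by -0.34 ± 0.15. Neither was called, with adjusted p of 0.112 and 0.246 by limma, and 0.158% of 633 genes were; unadjusted, 2 members and 119 genes had a p under 0.05. The members' median was -0.04, against 0.13 over all genes. Of the members 3 lay above 0 and 6 below, and 61.5% of all genes lay above 0. Treated diaphragm showed the smallest strain differences, from -0.12 for Vdac1 to 0.09 for Cs, with the 95% interval of Vdac1 from -0.61 to 0.36 and that of Atp5g1 (-0.10) from -0.46 to 0.25. Adjusted p was 0.998 for every member there by limma, 0 members and 20 genes had an unadjusted p under 0.05, and 0.158% of genes were called, as in hindlimb. Over both treated tissues 1.58% were called, and Slc25a3 differed by 0.34 ± 0.14 and Atp5c1 by -0.18 ± 0.10 (adjusted p 0.322 and 0.503 by limma). The interaction with tissue gave Slc25a3 0.73 ± 0.28 and Cs -0.43 ± 0.28 (adjusted p 0.695 and 0.725 by limma), with 0% of genes called, and 1 member and 42 genes at an unadjusted p under 0.05.

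Some macrophage and matrix genes were called between the treated strains, and no member was. Over both treated tissues the ratios of C1qb and Lyz2, of 4 measured macrophage markers (10 listed), were called higher in mdx mice. So were the ratios of Bgn, Lox and Postn, of 5 measured matrix markers (10 listed). The macrophage list averaged 1.16 in treated mdx hindlimb, with arrays from 0.99 to 1.32, and -0.07 in treated BL10 hindlimb, from -0.39 to 0.36. The matrix list averaged 1.56, from 1.11 to 1.86, and 0.74, from 0.25 to 1.20, in these groups, so its arrays overlapped. The members averaged 0.21, from 0.12 to 0.28, and 0.23, from 0.18 to 0.27, in the same groups. The part of the macrophage and matrix genes in the difference of Slc25a3 was not tested.

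Between tissues the ratios of Idh3a were higher in treated hindlimb than in treated diaphragm, by 0.41 ± 0.14 (SE), with an adjusted p of 0.101 by limma. Pdhb followed with 0.22 ± 0.12 (adjusted p 0.250), and 1 member and 157 genes were under 0.05 unadjusted. Called genes made up 1.58%, among them Pfkm, the muscle phosphofructokinase, which was lower in hindlimb (-0.82). Without the array named mdx, Idh3a differed by 0.52 and was called (adjusted p 0.0278 by limma). These are differences between ratios to 12-week RNA and not between the tissues' levels. In untreated mice 0% were called, and Cs (0.34 ± 0.28) and Pdhb (-0.24 ± 0.26) had adjusted p of 0.780 and 0.821 by limma. Unadjusted, 0 members and 54 genes were under 0.05. The differences of Cs and Pdhb both turned their sign under some alternatives.

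Age moved no member past the threshold in either table, and 0% of all genes were called at 3, 5 or 9 weeks against 12 weeks in both. In treated mice Vdac1 had the largest deviations of the members at 3 and 5 weeks, -0.67 ± 0.22 (SE) and -0.44 ± 0.22, and read -0.25 ± 0.22 at 9 weeks, with adjusted p of 0.570, 0.618 and 0.992 by limma. These fits share their 12-week arrays, on which treated Vdac1 was high. Atp5g1 at 3 weeks (-0.29 ± 0.16) and Cs at 5 weeks (-0.36 ± 0.20) and 9 weeks (-0.37 ± 0.20) were the others named by the rule. In untreated mice Atp5c1 (0.45 ± 0.26) and Atp5g1 (0.27 ± 0.24) led at 3 weeks, and Cs (-0.79 ± 0.36) and Idh3a (0.32 ± 0.22) at 5 weeks. At 9 weeks they were Vdac1 (-0.69 ± 0.59) and Cs (-0.50 ± 0.36), with an adjusted p of 0.914 for both by limma. An unadjusted p under 0.05 was reached by Vdac1 at 3 weeks in treated mice, as by 29 of 633 genes. Cs reached it at 5 weeks in untreated mice, as did 21 of 637 genes.

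The 12-week mdx arrays labelled Sample 1 and Sample 2 show how far arrays with the same labels lay apart. Vdac1 read 0.00 on Sample 1 and 2.77 on Sample 2 in diaphragm, and 0.01 and 2.10 in hindlimb. Cs read 0.04 and -0.84 in diaphragm, and 0.06 and 1.82 in hindlimb, so its difference had opposite signs in the tissues. Slc25a3 in hindlimb read 0.54 and -0.62. The median absolute difference over the members was 0.38 in diaphragm and 0.51 in hindlimb, against 0.44 and 0.46 over 632 genes.

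**Figure D5:**
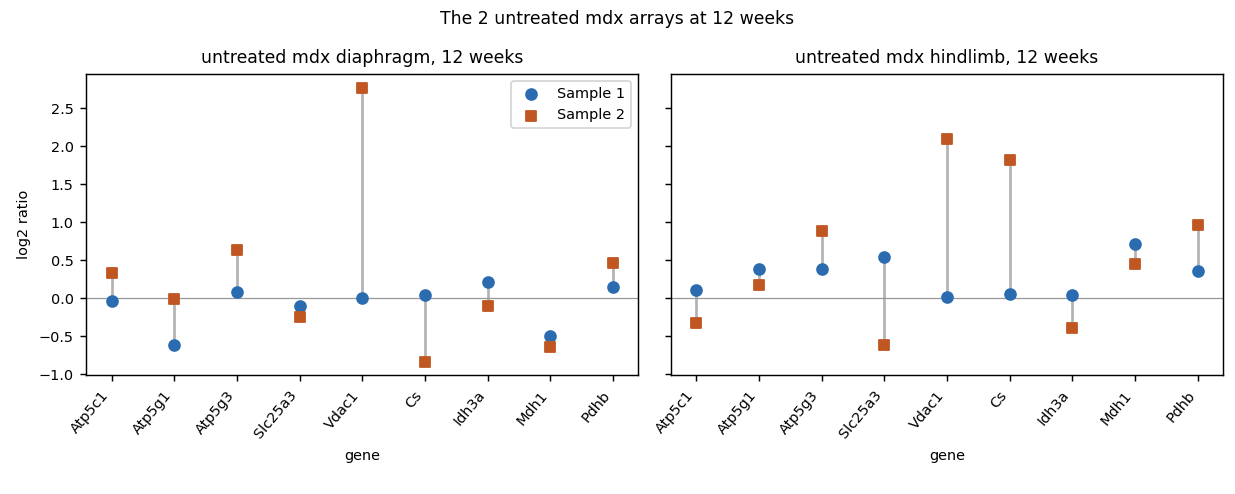
Log2 ratio (vertical axis) of the 9 genes (horizontal axis) on the untreated mdx 12-week arrays labelled Sample 1 (circles) and Sample 2 (squares), diaphragm left and hindlimb right; grey lines join the arrays. Vdac1 is near 0 on Sample 1 and above 2 on Sample 2 in both tissues, and Cs reaches 1.82 on the hindlimb Sample 2.

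Probes of 1 gene followed each other only in part. The 3 Atp5c1 probes, listed under the same sequence entry, had Spearman rho from 0.33 to 0.63 over the untreated and from -0.01 to 0.35 over the treated arrays. The 2 Pdhb probes had 0.45 over 16 untreated and 0.35 over 16 treated arrays, and lay on the same side of 0 on 13 and 5 of them. The Idh3a probes ranged from 0.18 to 0.49 untreated and from -0.34 to 0.47 treated. These values are descriptions over arrays that share groups, ages and references. The single-probe genes Atp5g1, Atp5g3, Slc25a3, Vdac1, Cs and Mdh1 have no such check.

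With each array's median and each gene's mean per table removed, the members varied together more often than other genes. Their 36 pairs had a median Spearman rho of 0.21, from -0.36 to 0.57, and 75% were above 0. Idh3a was apart from this, with rho below 0 against 7 of the other 8, from -0.36 to -0.03, and these were 7 of the 9 pairs below 0. All pairs of 632 genes had a median of -0.003, with 49.5% above 0. Mdh1 and Atp5g3 were the closest pair, at 0.57 over 33 arrays. The genes most like Cs were Cycs (0.62 over 33 arrays), which encodes cytochrome c, and the complex I gene Ndufv2 (0.60 over 32). Hadh, of fatty acid beta-oxidation, was the gene most like both Slc25a3 (0.68 over 33 arrays) and Pdhb (0.64 over 34). By table, Slc25a3 and Hadh had 0.55 untreated and 0.82 treated, and Pdhb and Hadh 0.75 and 0.36.

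Other members were closest to genes of other kinds. Atp5c1 was closest to Ambra1 (0.72) and the mitochondrial creatine kinase Ckmt2 (0.66), and Atp5g1 to the myoglobin gene Mb (0.60) and Ambra1 (0.58). Atp5g3 was closest to Sh3glb1 (0.59) and Septin8 (0.58), Idh3a to Bnip2 (0.67) and Pla1a (0.63), and Vdac1 to Taf9 (0.65) and Plec1 (0.63). Second to Slc25a3, Mdh1 and Pdhb stood Dync1i2 (0.57), Itm2b (0.52) and Ciapin1 (0.62). Some pairs were alike mainly in the untreated table. Idh3a and Pla1a had 0.86 untreated and 0.21 treated, and Mdh1 and Itm2b 0.80 and 0.13. Vdac1 had 0.74 and 0.33 with Taf9, and 0.59 and 0.21 with Plec1. Others were not, such as Atp5c1 and Ambra1 (0.72 and 0.70) or Pdhb and Ciapin1 (0.50 and 0.70). The probes of Taf9 and Vdac1 lie 3 and 2 rows apart in the tables, and those of Ckmt2 and Atp5c1 3 rows apart in the treated table. Likeness was ranked over 32 to 34 arrays that share groups and references, and position on the array was not separated from it.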

How the data were processed

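Arrays had 2 channels of total muscle RNA, per the labels. From their range, with medians near 1, the deposited values were taken for linear channel ratios. For these deposited ratios, the sources used here state neither scale, centring, direction and dyes nor the scanner and the authors' normalisation. Of 1200 probes per table, 812 had 1 symbol in the platform annotation, 99 several and 289 none listed. Ratios above 0 were turned into log2 and averaged over the probes of a gene; others became missing. Genes measured on 75% or more of the arrays entered lmFit and eBayes of limma 3.58.1 (R 4.3.3), with group and age as terms and Benjamini-Hochberg adjustment over all genes at 0.05: 637 genes untreated, 633 treated and 636 in fits of both tables. Ages serve as replicates within a group, and no replicate error is known apart from Sample 1 and Sample 2. The number of arrays limits the precision. Genes named with fitted values were the called members of a comparison, or the 2 with the smallest p, and called genes of the lists; Pdhb in treated minus untreated BL10 hindlimb was added after its value was seen. The members and gene lists were chosen with earlier results of these data known. The fit was tested on simulated data. Alternatives were 17 settings of scaling, print order, missing values, probes, arrays and spread, and leaving out each of 34 arrays; 2 of the settings were added after seeing the data. The scaling alternative used equal median absolute values after centring. Promoter sequences and positions are those of RefSeq, GRCm38.p6. Figures were drawn with matplotlib 3.10.9 in Python 3.11.15.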

Additional observations from a re-analysis of the deposited data

Results flagged for a closer look

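Each set examined held the 4 or 5 arrays of a gene in a group, spread over its 4 ages. By Dixon's criterion, which flags about 5% of sets of normally distributed replicates, 10 of 69 held an array far from the others. In untreated mdx muscle these were Vdac1 on the Sample 2 array of diaphragm (2.77, next highest 0.24) and of hindlimb (2.10, next 0.34), Cs on the Sample 2 array of hindlimb (1.82, next 0.06), and Mdh1 at 3 weeks in diaphragm (0.88, next -0.34). In untreated BL10 hindlimb it was Idh3a at 3 weeks (-1.02, next lowest -0.24), on an array that stood apart as a whole. The share of such sets over all genes was not computed, so the count does not show an excess among the members.

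In treated muscle, Cs in BL10 hindlimb at 12 weeks (0.92) stood above 3 arrays with the same value, 0.18. Idh3a in BL10 hindlimb at 9 weeks (-0.15, next lowest 0.51) was on the array whose channel labels name mdx, and Idh3a in mdx hindlimb at 3 weeks (-0.067, next 0.43) was the only array of that group below 0. Smaller gaps were those of Atp5c1 in mdx diaphragm at 9 weeks (-0.20, next -0.05) and Pdhb in BL10 diaphragm at 9 weeks (-0.27, next -0.03).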

How the results depend on the processing

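Arrays were matched across groups by age, through the age term. Both BL10 hindlimb groups held 1 array at each age, so leaving the term out could not change the difference of Idh3a. It was 0.77 (adjusted p 0.0360 by limma) without the term. No paired analysis was possible by number because Sample 1 and Sample 2 occur only at 12 weeks of 2 groups. For treated minus untreated BL10 hindlimb, 0 members were called with arrays centred, scaled or quantile-normalised, with the print-order trend removed, with the median over probes or single probes, without the 12-week arrays, and without the 2 untreated BL10 hindlimb arrays of low median, at 3 and 12 weeks (added after seeing the data). There 2 were called, Idh3a and Pdhb, with values of 0 or below set to the lowest positive ratio, and 0 to 2 when 1 array was left out. The difference of Idh3a was above 0 in all 51 alternatives, from 0.50 to 1.30. Many of these leave out an array of another group, which could not change the difference, so the count is no measure of its stability. The count over all genes ran from 3 without the 12-week arrays to 64 with the floor, against 31.

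Hindlimb minus diaphragm in treated mice had 1 called member under array scaling (Vdac1) and without the array named mdx (Idh3a), and 0 to 1 when 1 array was left out. Treated minus untreated mdx diaphragm had 1, Cs, under quantile normalisation. The members' median moved to 1.15 (untreated hindlimb strains), 1.30 (treated minus untreated BL10 hindlimb) and -0.84 (table difference by strain) with the floor. Hindlimb minus diaphragm in untreated mice turned for Pdhb under scaling (0.0084), quantile normalisation (0.040) and without those 2 arrays (0.14), with -0.39 to 0.0097 when 1 array was left out. It turned for Cs with the floor (-0.52) and without the 12-week arrays (-0.088). The strain difference of Idh3a in untreated diaphragm turned with print order removed (-0.028), Atp5c1 at 3 weeks untreated with the floor (-0.11), and Vdac1 at 9 weeks untreated without the Sample 2 arrays (0.14). The floor acts through the values it adds; for the others the cause was not tested.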
